A study of Mus musculus with 96 samples.

Results

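Transcripts of GABA-A receptor subunits were followed through single neurons of the mouse lateral superior olive (LSO), an auditory brainstem nucleus. The members are the 7 genes Gabra2, Gabra3, Gabra5, Gabrb1, Gabrb2, Gabrg1 and Gabrd, chosen by name, and each matched 1 of the 38887 rows of the expression table. The study patched neurons in acute brainstem slices of juvenile C57BL/6J mice, recorded from them, aspirated the cytoplasm and sequenced each neuron as 1 library (Patch-seq). Firing pattern gave the classes: principal neurons that project to higher auditory centers (pLSOs), with Onset or Sustained firing, and lateral olivocochlear neurons (LOCs), with Delayed firing, which project to the cochlea. For a negative control, a pipette tip touched the slice and no cell was harvested. The labels name no mutant and no treatment, and the mice were near the onset of hearing. After 8 of 96 libraries had been left out by name, the comparison held 41 Onset and 11 Sustained neurons, together 52 pLSOs, 28 LOCs and 8 negative controls.

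GABA-A receptors are chloride channels opened by GABA and are built from several subunits around a pore. Most hold α and β subunits, which form the GABA binding site, together with a γ or δ subunit. A γ subunit is needed for clustering at synapses and for benzodiazepine binding, whereas receptors with δ lie outside synapses and carry tonic inhibition. In the LSO, the main inhibitory input is glycinergic in the mature state, and GABA acts beside glycine.

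The table lists whole numbers of TPM, a read count scaled for gene length and depth, and a gene was counted as detected at 1 TPM or more. The labels name no animals, so each class counts as 1 sample, and no test was made between classes. Shares of neurons carry 95% intervals (Clopper-Pearson, exact) that speak to counting error alone. Fewer transcripts in a cell and less cytoplasm harvested cannot be told apart here. Which libraries were left out depended in part on the transcript clusters of the study, so the class contrast is not independent of expression.

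The promoters of Gabrb1, Gabra2 and Gabra5 are shown because these genes had the largest differences between the classes among members with a RefSeq promoter, Gabrb1 and Gabra2 being held more often by LOCs and Gabra5 by pLSOs. Each line gives the 250 bases before the RefSeq transcription start, 5′ to 3′ on the strand of the gene (RefSeq, GRCm38.p6). Of the 7 members, 6 matched a promoter there, and Gabrd did not.
Gabrb1 (first of its starts, chr5:71657671-71657920, plus strand): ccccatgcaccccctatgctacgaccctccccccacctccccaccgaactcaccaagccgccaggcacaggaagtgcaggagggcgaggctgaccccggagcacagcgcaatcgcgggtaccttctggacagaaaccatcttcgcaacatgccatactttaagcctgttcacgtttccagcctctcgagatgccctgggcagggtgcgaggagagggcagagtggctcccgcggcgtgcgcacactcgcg
Gabra2 (chr5:71095850-71096099, minus strand): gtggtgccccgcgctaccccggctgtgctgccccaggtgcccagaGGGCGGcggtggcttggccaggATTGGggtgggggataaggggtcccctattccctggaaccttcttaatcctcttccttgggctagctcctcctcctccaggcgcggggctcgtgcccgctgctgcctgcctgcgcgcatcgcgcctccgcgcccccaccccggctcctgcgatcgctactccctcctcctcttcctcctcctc
Gabra5 (chr7:57510060-57510309, minus strand): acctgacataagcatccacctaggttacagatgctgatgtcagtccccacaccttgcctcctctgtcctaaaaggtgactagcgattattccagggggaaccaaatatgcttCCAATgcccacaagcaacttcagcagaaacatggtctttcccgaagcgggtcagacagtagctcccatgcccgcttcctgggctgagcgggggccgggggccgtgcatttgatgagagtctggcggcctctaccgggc
Capitals mark matches, on either strand, to 6 motifs searched, namely the TATA box (TATAAA), the CCAAT box, the GC box (GGGCGG), an E-box (CACGTG), a MAF half-site (TGCTGAC) and a homeodomain core (TAATTA). The Gabra2 window held the GC box once and the CCAAT box once on the opposite strand, written as ATTGG, and the Gabra5 window held the CCAAT box once, 138 bases before the start. The Gabrb1 window held none of the 6. Of 32851 RefSeq promoter windows of this length, 32.7% held the GC box, 33.8% the CCAAT box, 12.4% the TATA box, 6.02% the E-box, 3.81% the MAF half-site and 4.84% the homeodomain core. GC content was 64.4% for Gabrb1, 70% for Gabra2 and 56.4% for Gabra5, against a median of 52.4% over all windows.

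All members were detected in a minority of neurons. Gabrb2 was found in 18 of 80 neurons (22.5%), Gabra5 in 17 (21.2%), Gabrd in 14 (17.5%), Gabra3 in 10 (12.5%), Gabra2 in 9 (11.2%), Gabrb1 in 8 (10%) and Gabrg1 in 6 (7.50%). The classes differed for 3 of the 7 members by 20 percentage points or more: Gabra5 and Gabrd were found more often in pLSOs, and Gabrb1 only in LOCs. With a gene counted at 10 TPM or more, none of the 7 was past 20 points (Gabrd 19.2, Gabrb1 -17.9 and Gabra5 13.5 points), and with all 86 neurons as labelled Gabrd was at 19.9 points. Of 10319 genes detected in at least 5% of the neurons, 5.46% were held by more pLSOs and 3.25% by more LOCs to that extent. Among the 4779 genes with an overall share between those of Gabrg1 and Gabrb2, the figures were 2.01% and 2.87%. The median difference over all 10319 genes was 2.20 points toward pLSOs.

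**Figure D1:**
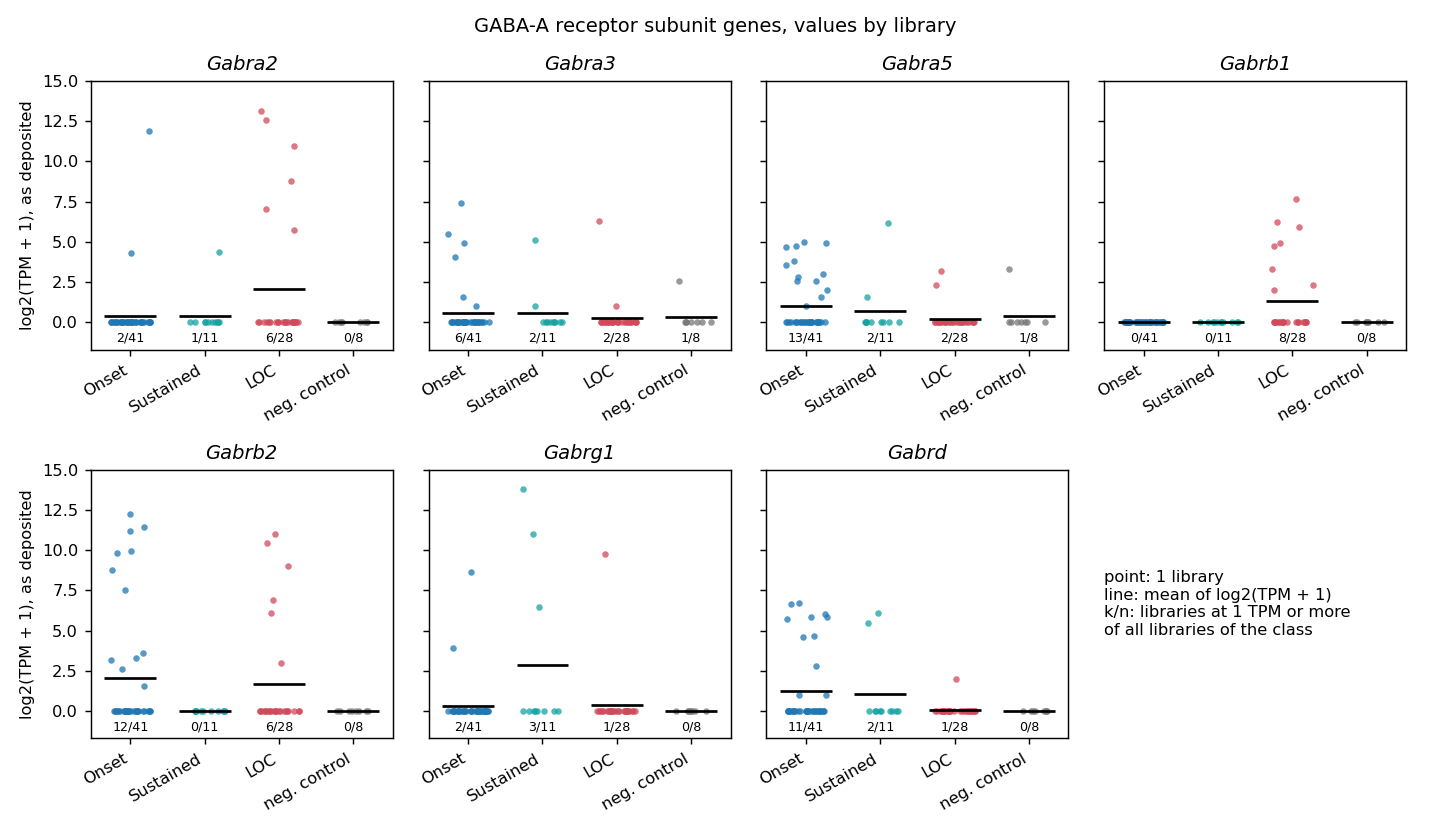
Each point is 1 library, the vertical axis is log2(TPM + 1) of the deposited value, and the line is the class mean of that quantity. Gabrb1 was at 0 in all 52 pLSOs and above 0 in 8 of 28 LOCs, whereas Gabra5 and Gabrd were above 0 mainly in Onset and Sustained neurons.

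Among the α subunits, Gabra5 was the one held by more pLSOs by 20 points or more. It encodes α5, a subunit known from extrasynaptic receptors of hippocampal pyramidal cells, and lies on chromosome 7 (57407672 to 57510059, minus strand, 12 exonic blocks). Its values in the 13 Onset neurons that held it were 1, 2, 3, 5, 5, 6, 7, 11, 13, 25, 26, 30 and 31 TPM. The 2 Sustained neurons had 2 and 70 TPM, and the 2 LOCs had 4 and 8 TPM. Both LOC values thus lay inside the range of the pLSOs, and the classes differed in how many neurons held the gene. The share was 28.8% of pLSOs (15 of 52, interval 17.1 to 43.1%) against 7.14% for LOCs (2 of 28, 0.877 to 23.5%), a difference of 21.7 points, and the intervals overlapped. Mean TPM was 4.56 ± 12.1 (SD, n = 52) in pLSOs and 0.429 ± 1.67 (SD, n = 28) in LOCs. Without its highest LOC, the LOC mean was 0.148 TPM. The gene was also listed at 9 TPM in 1 of 8 negative controls (12.5%, interval 0.316 to 52.7%), which is above the median of 7 TPM where pLSOs held it. The pLSO share lay inside this wide interval.

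Gabra2 pointed the other way. It encodes α2, a synaptic subunit abundant in the forebrain and in development, and lies on chromosome 5 (70957597 to 71095849, minus strand). The 6 LOCs that held it had 52, 132, 443, 1955, 6188 and 9040 TPM. The 3 pLSOs had 19 and 3803 TPM (Onset) and 20 TPM (Sustained), so the Onset neuron with the highest value exceeded 4 of the 6 LOCs. The share was 21.4% of LOCs (interval 8.30 to 41%) against 5.77% of pLSOs (1.21 to 15.9%), a difference of -15.7 points, pLSO minus LOC, which stayed under 20 points. Mean TPM was 636 ± 2043 (SD) in LOCs and 73.9 ± 527 (SD) in pLSOs. Leaving out the highest neuron of each class gave 325 and 0.765 TPM, so the pLSO mean rested on 1 neuron. It was found in none of the 8 negative controls, which allows a share of up to 37.5%.

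Gabra3, which encodes α3, a subunit typical of brainstem and monoaminergic neurons, lies on the X chromosome (72432681 to 72656848, minus strand). Onset neurons had 1, 2, 16, 29, 45 and 173 TPM, Sustained neurons 1 and 34 TPM, and LOCs 1 and 77 TPM. The values of the classes overlapped. The share was 15.4% in pLSOs (8 of 52, interval 6.88 to 28.1%) against 7.14% in LOCs (2 of 28, 0.877 to 23.5%), a difference of 8.24 points. The negative controls held it once, at 5 TPM, a share of 12.5%. The LOC shares of Gabra3 and Gabra5 were no higher than this share, which rests on 1 library, and the pLSO share of Gabra3 exceeded it by less than counting error. The higher LOC value, 77 TPM, was above that of the control. At least 1 of the 3 α members was found in 46.2% of pLSOs (24 of 52) and 35.7% of LOCs (10 of 28).

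**Figure D2:**
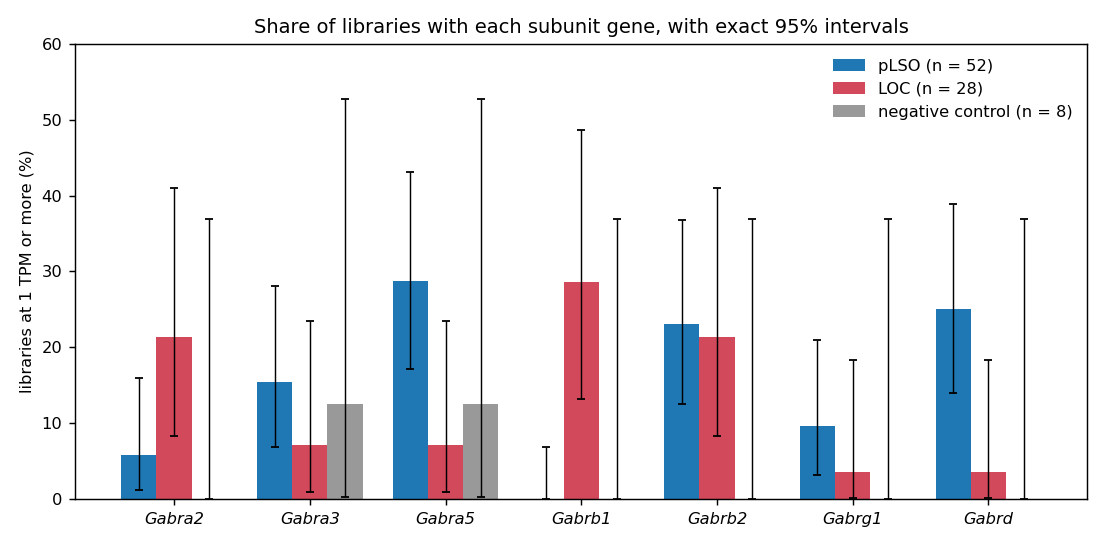
Bars give the percentage of libraries at 1 TPM or more for each gene in pLSOs, LOCs and negative controls, and whiskers are exact 95% intervals for counting error. The intervals of pLSOs (0 to 6.85%) and LOCs (13.2 to 48.7%) are apart for Gabrb1 and overlap for the other 6 genes.

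Of the β members, Gabrb1 was listed only in LOCs, in a minority of them, and Gabrb2 was held by similar shares of both classes. Gabrb1 encodes β1 and lies on chromosome 5 (71658113 to 72149037, plus strand). It had 3, 4, 9, 26, 29, 61, 74 and 199 TPM in 8 of 28 LOCs (28.6%, interval 13.2 to 48.7%) and was at 0 in all 52 pLSOs, which allows a share of up to 5.77%. The difference was -28.6 points, and a difference of smaller size was seen for 96.9% of the genes compared. The LOC mean was 14.5 TPM, and 7.63 TPM without the highest neuron. No negative control held the gene. All 8 LOCs with Gabrb1 also held Calca, the gene of the peptide CGRP, and 7 held Ucn (urocortin), as did 26 and 23 of all 28 LOCs. Gabrb1 shares 46 exonic bases (0.332% of its exonic length) with Gabra4 on the opposite strand. Gabra4, the remaining gene of this chromosome 5 group, was found in 1 pLSO and was at 0 in all 28 LOCs.

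Gabrb2 encodes β2, part of the most common receptor of the adult brain, and lies on chromosome 11 (42419757 to 42629028, plus strand). Onset neurons had 2, 5, 8, 9, 11, 183, 443, 890, 990, 2310, 2768 and 4892 TPM, and LOCs had 7, 67, 117, 508, 1421 and 2091 TPM. Both classes thus held low and high values over about the same range. The share was 23.1% in pLSOs (12 of 52, interval 12.5 to 36.8%) against 21.4% in LOCs (6 of 28, 8.30 to 41%), 1.65 points apart. It was the only member held by at least 4 neurons of each class, the limit set for a ratio of means. Mean TPM was 241 ± 839 (SD) in pLSOs and 150.4 ± 473 (SD) in LOCs, a ratio of 1.60, and the means were 149 and 78.5 TPM without the highest neuron of each class. In the deposited values, ratios of 2 or more were found for 16.8% of 5946 genes toward pLSOs and for 21% toward LOCs. Gabrb2 was not among them.

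Among the γ and δ members, Gabrd was found more often in pLSOs. It encodes the δ subunit of extrasynaptic receptors and lies on chromosome 4 (155384980 to 155398112, minus strand). Onset neurons had 1, 1, 6, 23, 24, 51, 56, 56, 64, 99 and 104 TPM, and Sustained neurons had 43 and 67 TPM. The only LOC had 3 TPM, below 11 of the 13 pLSOs. The share was 25% of pLSOs (13 of 52, interval 14.0 to 38.9%) against 3.57% of LOCs (1 of 28, 0.0904 to 18.3%), a difference of 21.4 points with overlapping intervals. Mean TPM was 11.4 ± 25.9 (SD) in pLSOs and 0.107 ± 0.567 (SD) in LOCs, the latter from 1 neuron, and the pLSO mean stayed at 9.63 TPM without its highest neuron. No negative control held it.

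Gabrg1 encodes γ1, found in restricted brain regions and in glia, and lies on chromosome 5 (70751047 to 70842617, minus strand). It had 14 and 406 TPM in Onset neurons, 89, 2023 and 14370 TPM in Sustained neurons and 859 TPM in 1 LOC. Its share was 9.62% in pLSOs (interval 3.20 to 21.0%) against 3.57% in LOCs (0.0904 to 18.3%). The pLSO mean of 325 TPM fell to 49.6 TPM without the highest neuron. Of the 5 pLSOs with Gabrg1, 4 also held at least 1 of 6 astrocyte markers (Gfap, Aqp4, Slc1a3, Slc1a2, Aldh1l1 and Gja1), as did 36 of all 52 pLSOs and the LOC with Gabrg1. The part of glial RNA in this result was not tested.

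Within pLSOs, Onset and Sustained neurons differed by 20 points or more for 2 members. Gabrb2 was held by 29.3% of Onset neurons (12 of 41, interval 16.1 to 45.5%) and by none of 11 Sustained neurons, which allows a share of up to 27.3%. Gabrg1 was held by 27.3% of Sustained neurons (3 of 11, interval 6.02 to 61.0%) and 4.88% of Onset neurons (2 of 41, 0.596 to 16.5%). The intervals overlapped in both cases. Over the 10319 genes, 3.22% were held by more Onset and 10.7% by more Sustained neurons to that extent, so with 11 Sustained neurons a gap like that of Gabrg1 was common. In the left-out library cell_54, labelled Sustained, Gabrb2 stood at 825 TPM. With the libraries grouped as labelled, Gabrb2 was no longer past 20 points.

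The deposited values of the 7 genes cannot be compared with each other as they stand, because the values behaved as if the rows had not been divided by the length of their own gene. Rows follow the Ensembl identifier, and the divisor that the values imply grew down the table, as a list of gene lengths sorted by size would. The reads and rescaled levels given from here on are estimates that rest on this reading and on lengths from Gencode vM21, which is not the release the study names. In rows 1 to 530, apart from 11 rows where the divisor changes, every value up to 4000 TPM in each of the 86 neurons was a whole multiple of 1 step per library, divided by 1, 2 or 3 (tolerance 0.51 TPM). The step is what 1 read is worth, and it allowed an estimate of the reads behind a value. The estimated divisor was 2 bases for Gabra2 and Gabrg1, 6 for Gabrb2, 231 for Gabrd, 238 for Gabrb1, 308 for Gabra3 and 1083 for Gabra5. The exonic lengths in Gencode vM21 were 7640, 7869, 6360, 2875, 13838, 3924 and 2974 bases in the same order. Divisors beyond the first rows rest on the sorted lengths less 80 bases. Applied to ribosomal protein genes, they brought the median of 58 genes in later rows from 5.57 to 254 TPM and that of 14 genes in the first 5000 rows from 846 to 220.4 TPM. On this reading, the scaling of each library rests on the same divisors, so values of 1 gene in different neurons are affected too. With rescaled values, ratios of 2 or more were found for 21% of genes toward pLSOs and 16.1% toward LOCs. The deposited values gave 16.8% and 21%. The Gabrb2 ratio was 1.64 with rescaled values.

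**Figure D3:**
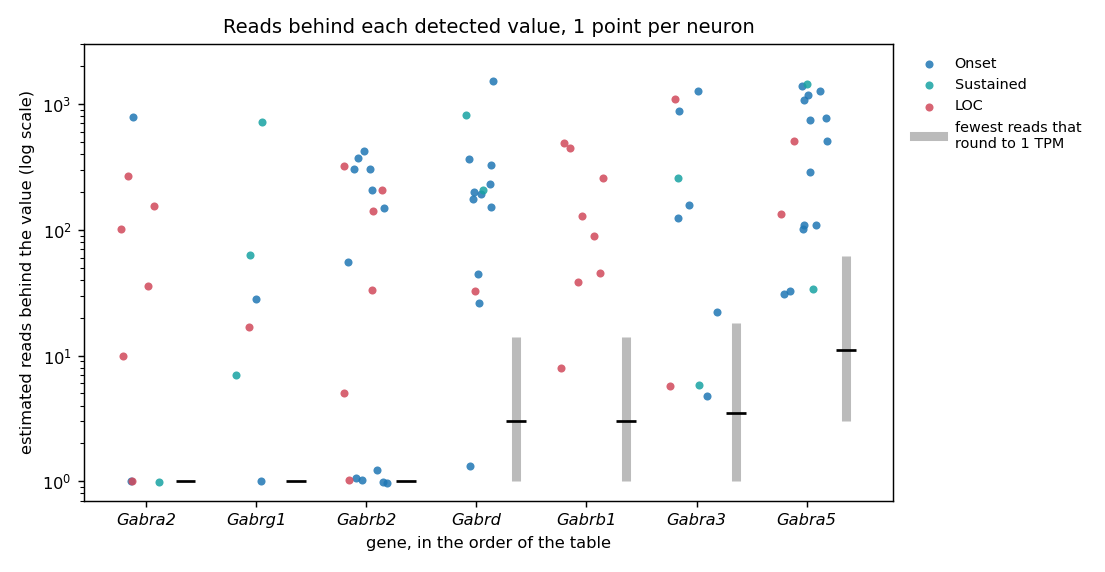
Each point is 1 neuron with the gene, the vertical axis is the estimated number of reads on a log scale, and grey bars span over the 80 neurons the fewest reads that round to 1 TPM, with the median as a black line. A single read sufficed for Gabra2, Gabrg1 and Gabrb2, whereas Gabra5 needed a median of 11 reads.

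The same threshold of 1 TPM thus asked for different evidence. For Gabra5, from 3 to 62 reads were needed, depending on the library, and its detected values rested on 30.8 to 1445 reads. For Gabrd and Gabrb1, 1 to 14 reads were needed, with a median of 3. For Gabra2, Gabrg1 and Gabrb2, 1 read was listed in every library, and 10 of their 33 detections rested on 1 read, 8 of 20 in pLSOs and 2 of 13 in LOCs. Of the 49 detections of the other 4 genes, 1 rested on about 1 read, a Gabrd value in an Onset neuron. The low Gabrb2 values of 2, 5, 8, 9 and 11 TPM in Onset neurons and 7 TPM in a LOC were 1 read each, and the remaining 12 values were between 5 and 422 reads. Of the 3 pLSO detections of Gabra2, 2 were 1 read each and the other was 786 reads, while 5 of the 6 LOCs held 10 to 266 reads.

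Counting a gene as detected at 10 estimated reads took away the detections that rested on few reads, but could not bring back reads rounded to 0 TPM, and Gabra5 still needed a median of 11 reads to be listed. By this measure Gabra5 was held by 15 of 52 pLSOs and 2 of 28 LOCs, Gabrb1 by 0 and 7, Gabrd by 12 and 1, Gabra2 by 1 and 5, Gabrb2 by 7 and 4, Gabra3 by 6 and 1, and Gabrg1 by 3 and 1. The difference for Gabrd was then 19.5 points, just under the limit of 20, while Gabra5 (21.7 points) and Gabrb1 (-25 points) were past it. The direction was the same as at 1 TPM except for Gabrb2, at -0.824 points. Between Onset and Sustained neurons, no member differed by 20 points any more. The limit on Gabrb1 in pLSOs is set by this rounding too. From 1 to 14 reads, with a median of 3, were needed to reach 1 TPM, and a pLSO library with fewer would be listed at 0. In LOCs, 2 to 7 reads were needed, with a median of 2.

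When each value was rescaled from the divisor of its row to the exonic length of its gene, the order of the members changed. As deposited, mean TPM over the 80 neurons was 271 for Gabra2, 222 for Gabrg1, 209 for Gabrb2, 7.47 for Gabrd, 5.06 for Gabrb1, 4.74 for Gabra3 and 3.11 for Gabra5. Without the highest neuron of each gene, 4 of these fell more than 1.5-fold, to 159.6 for Gabra2, 42.9 for Gabrg1, 2.61 for Gabrb1 and 2.61 for Gabra3. After rescaling, Gabra5 was first with an estimated mean of 91.4 ± 284 TPM (SD, n = 80), followed by Gabrd with 49.7 ± 142, Gabra3 with 32.1 ± 151 and Gabrb2 with 13 ± 49.6. Gabra2 had 5.59 ± 25.2, Gabrg1 4.47 ± 32.1 and Gabrb1 4.26 ± 17.5. Every SD exceeded its mean, with most neurons at 0 for each gene. Differences between neighbors in this order were not tested. Without the highest neuron of each gene, Gabra5 (67.5 TPM), Gabrd (41.6 TPM) and Gabra3 (17.3 TPM) kept their places, followed by Gabrb2 (8.36 TPM) and Gabra2 (3.89 TPM), and Gabrb1 (2.82 TPM) passed Gabrg1 (0.940 TPM). In pLSOs, Gabra5 (134 TPM) and Gabrd (76.2 TPM) had the highest rescaled means. In LOCs, Gabra3 (18.3 TPM) was followed by Gabra5 (12.9 TPM), Gabrb1 (12.2 TPM) and Gabra2 (12.1 TPM), but this order rested on single neurons. Without the highest neuron of each gene, the LOC means were 8.26 TPM for Gabrb1, 7.40 for Gabra2, 3.17 for Gabra5 and 0.215 for Gabra3.

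**Figure D4:**
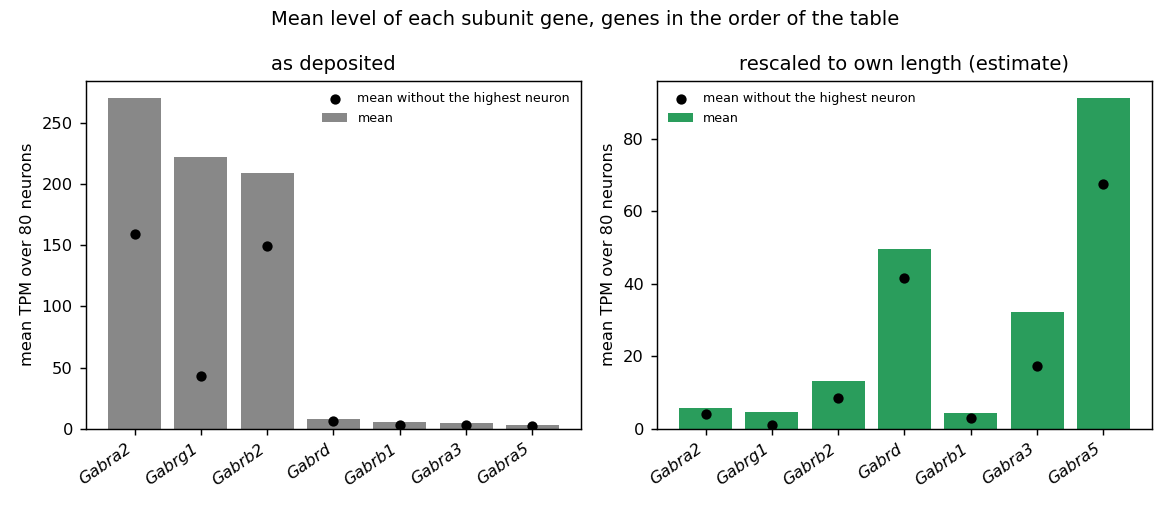
Bars give the mean TPM over 80 neurons as deposited (left) and as estimated with the exonic length of the gene itself (right), with genes in the order of the table, and points give the mean without the highest neuron. Bars fall from Gabra2 (271 TPM) to Gabra5 (3.11 TPM) on the left, and Gabra5 is highest (91.4 TPM) on the right.

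Most neurons held 0 or 1 member. In pLSOs, 13 neurons held none, 24 held 1, 13 held 2 and 2 held 3, with a mean of 1.08 ± 0.813 (SD). In LOCs, 10 held none, 11 held 1, 6 held 2 and 1 held 3, with a mean of 0.929 ± 0.858 (SD). Of the 8 negative controls, 6 held none and 2 held 1. A β member was found in 46.4% of LOCs (13 of 28, interval 27.5 to 66.1%) and 23.1% of pLSOs (12 of 52, 12.5 to 36.8%). A γ or δ member was found in 17 of 52 pLSOs (32.7%, interval 20.3 to 47.1%) and in 2 of 28 LOCs (7.14%, interval 0.877 to 23.5%). A chromosome 5 member (Gabra2, Gabrb1 or Gabrg1, grouped there with Gabra4) was held by 14 of 28 LOCs and 8 of 52 pLSOs. Only 1 neuron, a LOC, held more than 1 of the 3.

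An α, a β and a γ or δ member together were found in 2 neurons, both Onset: cell_43 held Gabra2, Gabrb2 and Gabrd, and cell_44 held Gabra5, Gabrb2 and Gabrd. The Gabrb2 value of cell_43, 2 TPM, was 1 estimated read, so at 10 estimated reads cell_44 alone held all of them. The LOC with 3 members (cell_82) held Gabrb1, Gabrb2 and Gabrd. Gabra5 and Gabrd occurred together in 5 pLSOs, against 3.75 from the product of their shares. Gabra5 and Gabrb2 occurred together in 1 pLSO, against 3.46. These are counts over neurons that differ in depth and describe this sample only. The neurons with 3 members were deep, with an estimated 2593000 (cell_43) and 3230000 (cell_44) reads in genes against a pLSO median of 882500. The LOC cell_82 had 1584000 against a LOC median of 723500.

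**Figure D5:**
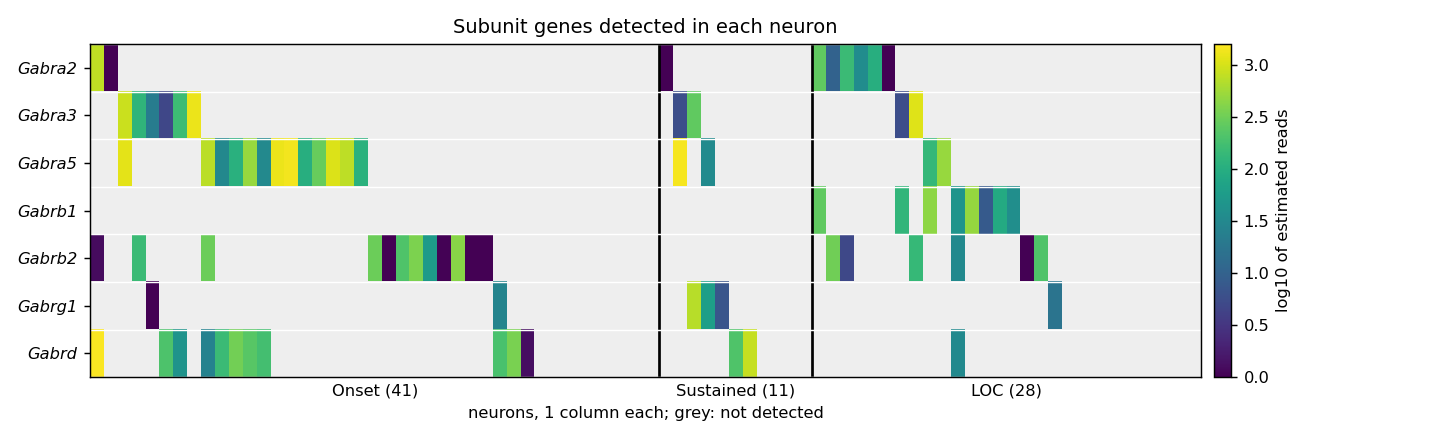
Each column is 1 of 80 neurons, sorted within its class by the genes it held, each row is a gene, and color gives the log10 of the estimated reads. Gabra5 fills 13 Onset columns, Gabrb1 is filled only among LOCs, and most columns hold 1 member or none.

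Of the genes that anchor or traffic these receptors, set the chloride gradient or supply GABA, 2 differed between the classes by 20 points, Gabarap and Gad2, both held by more LOCs, against 3.25% of all genes toward LOCs and 5.46% toward pLSOs. Of 15 genes of the inhibitory postsynapse, 14 were in the table under these names and 12 could be compared. None was held by more pLSOs and 1 by more LOCs to 20 points, Gabarap, a trafficking protein of γ subunits (82.1% of LOCs and 59.6% of pLSOs), and the list median was 5.36 points toward pLSOs. Gphn, the gene of the scaffold gephyrin, was held by 46.2% of pLSOs and 28.6% of LOCs. The chloride transporters Slc12a2, which loads chloride, and Slc12a5, which extrudes it, differed by 0 and -1.10 points (list median -0.549). Among 7 genes of GABA synthesis, loading and uptake, 4 could be compared. Gad2, a GABA-synthesizing enzyme, was held by 71.4% of LOCs, 25% of pLSOs and 3 of 8 negative controls. It was the only one of the 4 past 20 points, and the median was -7.83 points.

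Spontaneous inhibitory postsynaptic currents, given in the labels for 78 of the 80 neurons, decayed with a median time constant of 1.51 ms in pLSOs (0.440 to 3.60 ms, n = 51) and 2.29 ms in LOCs (1.01 to 5.02 ms, n = 27). Within a class, the rank correlation of this decay with the TPM of Gabra5, Gabrd and Gabrb2 over 51 pLSOs was -0.02, 0.01 and -0.04. Over 27 LOCs it was 0.08 for Gabrb1, 0.09 for Gabra2 and 0.26 for Gabrb2, held by 8, 6 and 5 of them. In values this sparse, such coefficients are no finding. The study told inhibitory from excitatory currents by their direction and names no step that parts glycine from GABA currents. No member reached 25% of neurons, the share set for naming the genes of most similar pattern, so none are named.

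Libraries of the classes were of similar depth. Neurons held 1175 to 6276 genes (median 2560.5 in pLSOs and 2394 in LOCs), against 285 to 1271 in negative controls, and an estimated 188000 to 3230000 reads in genes (medians 882500 and 723500). All 52 pLSOs held at least 1 of Spp1, Maf and Kcnh7, and 26 of 28 LOCs held at least 1 of Calca, Ucn and Isl1. The study ranked these genes among those that best set its clusters apart in the same neurons. Their presence is therefore no independent check of the classes. Ucn and Isl1 were at 0 in all pLSOs, while Calca was listed in 15 of them (mean 2.60 TPM, against 1174 TPM in LOCs), and Maf in 8 of 28 LOCs (mean 0.429 TPM, against 6.50 TPM in pLSOs). Neuronal transcripts were also listed in the 8 negative controls, Snap25 in 7 (mean 1108 TPM), Calca in 5 and Spp1 in 4. All 52 pLSOs and 27 of 28 LOCs held at least 1 of 4 neuronal markers. Markers of other cells were present in both classes. At least 1 of 6 astrocyte markers was held by 36 of 52 pLSOs (sum 0 to 2930 TPM) and 18 of 28 LOCs (0 to 13459 TPM), and at least 1 of 5 oligodendrocyte markers by 49 of 52 (0 to 12396 TPM) and 28 of 28 (1 to 24891 TPM). At least 1 of 5 microglia markers was held by 27 of 52 (0 to 1723 TPM) and 14 of 28 (0 to 656 TPM), and at least 1 of 3 endothelial markers by 11 and 5. Their part in the values of the receptor genes was not tested.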

How the data were processed

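The authors trimmed the reads (Trim Galore 0.4.2), aligned them to the mouse genome (mm10) with STAR, marked duplicates (Picard 1.115), counted reads per gene with featureCounts and converted the counts to TPM. The deposited score values are these TPM rounded to whole numbers, and each library summed to 999773 to 1000026. Read counts were not used here. The table holds 38887 genes, of which 37570 have a length in Gencode vM21, the annotation used here for names, positions and lengths. The authors' classes were taken from the labels, and 8 libraries were left out by name (cell_36, cell_39, cell_40, cell_54, cell_78, cell_85, NC5 and NC6). The members, gene lists and limits were chosen with earlier results of these data known.

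A gene was detected at 1 TPM or more. A difference was counted at 20 percentage points between shares or, where at least 4 neurons of each class held the gene, at a ratio of means of 2. Backgrounds cover the genes found in 5% or more of the neurons. Class means of the members and rescaled means were also computed without the highest neuron, and are given so where it moved a mean more than 1.5-fold. For 0 of n libraries the limit is 3 of n. Named genes are the 7 members, genes from 3 lists (inhibitory postsynapse, chloride transporters, GABA supply) and cell type markers. A rule for genes most like a member, at 25% of neurons, named none. A further list of receptor genes is not reported here. The step per read was found in rows 1 to 530. The search was tried on simulated libraries built on the same scheme, which cannot show that the deposited values follow that scheme. Steps were not sought in negative controls. Alternatives were 10 TPM, 10 estimated reads (chosen after the values were seen), all 86 neurons as labelled, only neurons with more genes than any negative control, other means, own-length values and no gene filter. Versions were SciPy 1.17.1, NumPy 2.4.6, pandas 2.3.3 and matplotlib 3.10.9 under Python 3.11.15.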

Additional observations from a re-analysis of the deposited data

Results flagged for a closer look

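Among the 8 negative controls, 1 library stood far from the others for Gabra3 (5 TPM) and 1 for Gabra5 (9 TPM), and the other 7 were at 0 in each case. The criterion (Dixon) passes about 1 group in 20 of normally distributed values, but is always met where 1 library alone is above 0.

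The 8 left-out libraries were outside the comparisons, and in 6 of them members were listed above the highest negative control used. Gabra5 stood at 17 TPM in cell_39 (labelled Onset) and Gabrb2 at 825 TPM in cell_54 (labelled Sustained). Gabra2 stood at 644 TPM in cell_78 and 8056 TPM in cell_85, and Gabrb1 at 69 TPM in cell_85, both labelled LOC. These libraries were shallow, with an estimated 147000 and 68000 reads in genes, against at least 188000 in the neurons compared. Their steps per read were 257.6 and 644.5 TPM, divided by 2 for Gabra2, against at most 231 TPM in the neurons compared. The same TPM of a gene thus stands for fewer reads in these 2 libraries. The negative control NC5 had 127 TPM of Gabra3 and 4640 TPM of Gabrb2, and NC6 had 22 TPM of Gabrb2.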

How the results depend on the processing

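Of 52 values recomputed under the alternatives, 46 stayed within the limits set, and none of the differences past 20 points changed sign. Shares were held to the combined half-width of their exact intervals, which is wide for recounts of the same neurons. Members per neuron were held to the SD, and other values to 1.5 times. Only Gabrb2 could enter the count of ratio calls, which stayed at 0. The tally is thus no measure of robustness. At 10 TPM, no member differed by 20 points between pLSOs and LOCs (0 of 7 against 3 of 7), with Gabrd at 19.2, Gabrb1 at -17.9 and Gabra5 at 13.5 points. At 10 estimated reads, 2 remained (Gabra5 and Gabrb1). Grouping as labelled gave 3, with Gabra2 (-21.3 points, with the shallow libraries cell_78 and cell_85 added) in place of Gabrd (19.9 points). Between Onset and Sustained neurons the number fell from 2 to 1 at 10 TPM, to 1 as labelled and to 0 at 10 estimated reads. The Gabrb2 ratio of 1.60 was 0.978 with means of log2(TPM + 1) and 1.02 with means of log2(TPM + 0.1), and 1.54 to 1.70 otherwise. With own-length values, ratios of 2 or more were found for 21% of genes toward pLSOs and 16.1% toward LOCs, against 16.8% and 21%. Without the gene filter, 3.62% and 2.15% of 15566 genes differed by 20 points, and 27.3% and 24.6% of 10913 genes by a ratio of 2. No ratio was given for the other 6 members, held by fewer than 4 neurons of a class. No paired analysis was possible because neurons and negative controls share no more than a number and no test was made. Rounding to whole TPM limits the members in late rows, above all Gabra5.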
